A study of Mus musculus with 11 samples.

Results

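The cytosolic ribosomal protein genes code for the proteins of the large (60S) and small (40S) subunits of the ribosome. They were taken by symbol as the protein-coding genes that begin with Rpl or Rps and a digit or with Rplp, or are Rpsa, without the kinases whose symbols begin with Rps6k. This gave 92 of the 31956 genes measured (21666 of them protein-coding), and 85 of the 92 were expressed highly enough to be tested between the strains. The rule also takes in a few genes that are not standard subunits. These are 6 genes that carry a pseudogene name but are annotated as protein-coding, the tissue-restricted or duplicated copies such as Rpl3l, Rpl22l1 and Rps27l, and Rps19bp1, which codes for a protein that binds Rps19. Conversely, some ribosomal protein genes have other symbols, and of these Fau and Rack1 are given separately.

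RNA-seq was performed on liver of 11 female mice of 2 conplastic strains, which have the nuclear genes of C57BL/6J and the mtDNA of a different inbred strain. The 7 B6-mtALR mice (C57BL/6J-mtALR/J) carried the variant m.4738C>A in mt-Nd2, and the 4 B6-mtBPL mice (C57BL/6J-mtBPL/J) carried m.11902 T>C in mt-Nd5, both of which are genes of mitochondrial complex I. Among B6-mtALR, replicates 1 to 3 were taken at 5 months of age and replicates 4 to 7 at 3 months. Among B6-mtBPL, replicates 1 and 2 were taken at 3 months and replicates 3 and 4 at 4 months. No treatment is named, and C57BL/6J mice with their own mtDNA were not analysed here. Polyadenylated RNA was sequenced, and the total estimated count per mouse ranged from 18145815 to 25074045. Hepatocyte markers (Alb, Apoa1 and others) took 11.6% to 14.3% of the counts of each mouse, while of 4 pancreas genes Cpa1, Pnlip and Prss2 were at 0 in all 11 mice and Cela2a was detected, with a sum of at most 0.977 CPM.

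Ribosomal proteins are assembled with ribosomal RNA into the particle that translates mRNA, and most of them are present in a single copy per ribosome, with the acidic proteins of the P stalk as an exception. Their mRNAs are short, abundant and long-lived, and they usually begin with a C followed by a run of pyrimidines, the terminal oligopyrimidine (TOP) motif, through which mTOR and LARP1 control how much of the mRNA is translated. In the liver, ribosome production follows feeding and growth, and RNA-seq reports the amount of these mRNAs and not their translation.

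The start of the gene is therefore shown for 6 of the 10 called genes described below with the largest strain differences and for 2 of the genes with the smallest, Rps6 and Rps12. Each line gives 30 bases of RefSeq sequence (GRCm38.p6) on the strand of the gene, and the capitals mark a C followed by at least 6 pyrimidines.
Rpl22l1: agcccgttCTCTTCCCacggctgcagctca
Rps27: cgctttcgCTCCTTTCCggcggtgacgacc
Rpl13a: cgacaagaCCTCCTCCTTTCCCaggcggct
Rpl15: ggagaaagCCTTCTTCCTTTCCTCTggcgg
Rpl35: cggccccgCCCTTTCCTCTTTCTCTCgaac
Rpl27a: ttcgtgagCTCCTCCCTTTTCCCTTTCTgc
Rps6: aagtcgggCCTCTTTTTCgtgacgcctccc
Rps12: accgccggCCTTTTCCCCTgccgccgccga
These windows lie at chr3:28805503-28805532, plus strand, at chr3:90213629-90213658, minus strand, at chr7:45128722-45128751, minus strand, at chr14:18270969-18270998, minus strand, at chr2:39005117-39005146, minus strand, at chr7:109519183-109519212, plus strand, at chr4:86857347-86857376, minus strand, and at chr10:23787180-23787209, minus strand. Such a tract was searched from 25 bases before to 50 bases after the annotated start, on the strand of the gene. It need not lie at the first base of the mRNA, so that it is not by itself a TOP motif. It was present in 56 of the 78 RefSeq promoters that matched 66 of the 92 genes (71.8%), compared with 31.5% of all 32851 promoters. In the window of 300 bases around the start, on both strands, CCGGAAG (letters bound by ETS factors) was found in 34.6% of these promoters against 8.86% of all. The E-box CACGTG, which MYC can bind and which reads the same on both strands, was found in 10.3% against 7.15%. The TATA box letters TATAAA, searched on the strand of the gene, were found in 7.69% against 8.32%. All 8 lines were taken from promoters that have the tract, so that its presence in them follows from their choice.

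The ribosomal protein genes together took 1.10% to 1.78% of all estimated counts. The share was 1.44, 1.72, 1.45 and 1.48% in B6-mtALR replicates 4 to 7 (3 months), and 1.64, 1.78 and 1.34% in replicates 1 to 3 (5 months). In B6-mtBPL it was 1.22 and 1.10% in replicates 1 and 2 (3 months), and 1.48 and 1.28% in replicates 3 and 4 (4 months). Thus the lowest shares belonged to the B6-mtBPL mice of 3 months, and B6-mtBPL replicate 3 lay above 2 of the 4 B6-mtALR mice of 3 months. The means were 1.52% ± 0.136 (SD, n = 4) in B6-mtALR of 3 months and 1.27% ± 0.158 (SD, n = 4) in B6-mtBPL. As these mRNAs are short, their share of TPM, which is per length, was higher and ranged from 3.23% to 4.69%. In bulk liver, a lower level in every cell and fewer cells with a high level cannot be told apart.

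The genes moved together from mouse to mouse. Over the 11 mice, the Pearson correlation of a gene's log2 CPM with the mean of the other tested ribosomal protein genes had a median of 0.963 over the 85 genes and was above 0.8 in 78 of them. These correlations are descriptions, since all genes of a mouse share 1 library. The lowest value was 0.482 in Rpl7l1, and Rps19bp1, Rpl10, Rps12, Rpl5, Rpl22l1 and Rps27rt lay between 0.615 and 0.771. B6-mtBPL replicate 2 was the lowest of the 11 mice in 83 of the 85 genes, with Rpl5 and Rps19bp1 as the exceptions, and B6-mtALR replicate 2 (5 months) was the highest in 57. The ratio of 60S to 40S shares of TPM varied little and was between 1.18 and 1.25 in every mouse. This is a ratio of mRNA and does not measure the balance of the subunits.

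**Figure D1:**
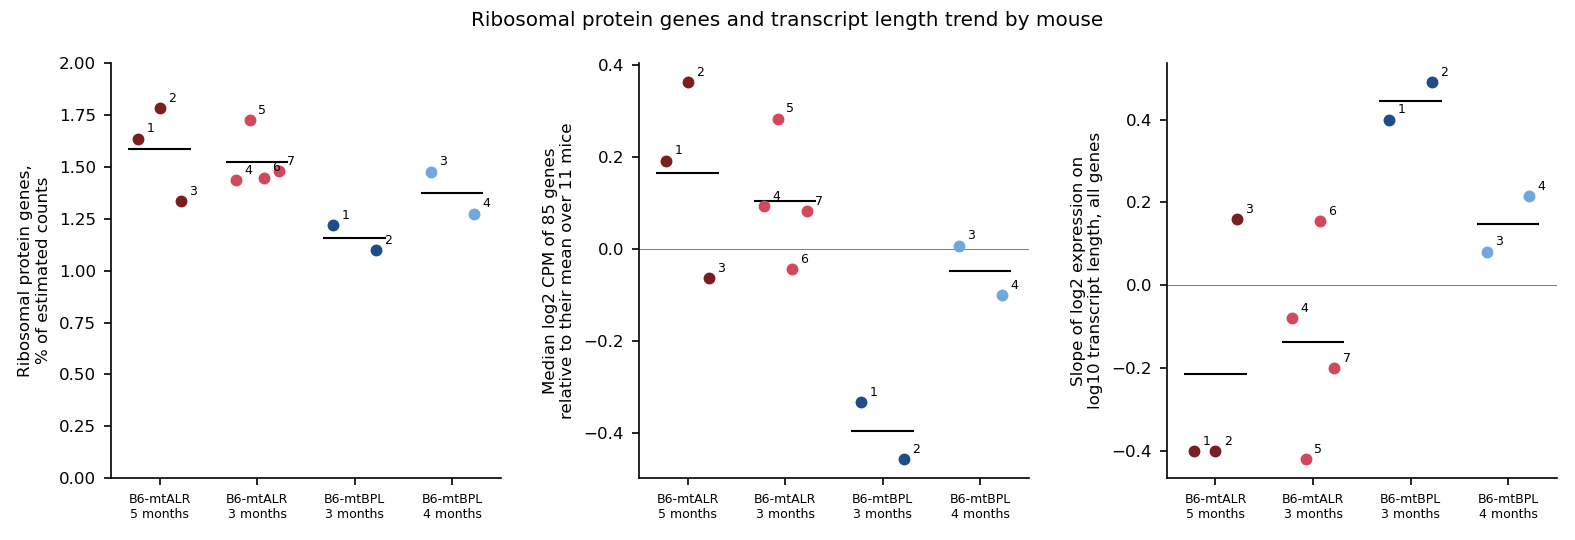
The share of estimated counts (percent), the median log2 CPM of 85 ribosomal protein genes relative to their mean over 11 mice, and the slope of log2 expression on log10 transcript length over all genes, with 1 point per mouse (number: replicate) and a line at each group mean. The 2 B6-mtBPL mice of 3 months sit lowest in the first and second plots (-0.33 and -0.46 in the second) and highest in the third (0.400 and 0.491).

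Transcript length moved with the same mice. For each mouse, the slope of expression on length was computed over all genes, as the log2 expression relative to the mean of the mice per unit of log10 transcript length. A negative slope means that short transcripts were relatively high in that mouse. The slope was -0.0790, -0.421, 0.155 and -0.200 in B6-mtALR replicates 4 to 7, and -0.401, -0.401 and 0.159 in replicates 1 to 3. In B6-mtBPL it was 0.400 and 0.491 in the mice of 3 months, and 0.0813 and 0.215 in those of 4 months. The mice with the highest ribosomal protein shares thus had the most negative slopes. The median length of the 85 genes was 674 bases against 2388 over all genes tested, and 84 of them were shorter than the median gene. Of the 517 genes tested that were shorter than 700 bases, 45 (8.70%) were ribosomal protein genes. The main results below are therefore also given with the length trend of each mouse removed, and the part of the trend in the results was not tested.

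First, the strains were compared in the 8 mice of 3 to 4 months by a model of strain and age, as the study asked which liver transcripts differ between them. Because all 4 B6-mtALR mice here were 3 months old, this fold change sets them against the 2 B6-mtBPL mice of 3 months. The older B6-mtBPL mice enter only the age term and the variance. Ribosomal protein mRNAs were higher in B6-mtALR. Of the 85 genes tested, 23 were called higher and 0 lower (edgeR quasi-likelihood test, adjusted p under 0.05), while 0.935% of all 13372 genes tested were called higher and 1.44% lower. All 85 log2 fold changes were above 0, compared with 49.6% of all genes. Their median was 0.49, a 1.40-fold difference, against -0.0032 over all genes. At an unadjusted p under 0.05, 82 were higher and 0 lower, against 10.2% and 11.2% of all genes, and the exceptions were Rpl10, Rpl7l1 and Rps12.

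Both subunits were represented. Of the 49 tested 60S genes, 13 were called (median log2 fold change 0.46), and of the 33 tested 40S genes, 9 were called (median 0.49). The share of all genes called higher was 0.935%. The remaining called gene was Rps12-ps3. Beyond the genes described below, the called genes included Rpl17, Rpl23, Rpl24, Rpl31, Rpl34 and Rpl36a of the 60S subunit and Rps13, Rps24 and Rps25 of the 40S subunit. Over the 23, the log2 fold changes ranged from 0.50 to 1.24 and the adjusted p from 0.0206 to 0.0497. The 62 genes that were not called had values from 0.28 to 0.64, and 37 of them had an adjusted p under 0.1, so that called and uncalled genes formed 1 continuous range. In 82 genes, each of the 4 B6-mtALR mice lay above both B6-mtBPL mice of 3 months (15.8% of all genes). Against all 4 B6-mtBPL mice, this held in 25 (5.68% of all genes).

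The largest difference was that of Rpl22l1, the paralog of the 60S protein gene Rpl22 (chromosome 3, 28805436 to 28807424, plus strand). Its CPM was 44.6, 31.1, 40.2 and 49.1 in B6-mtALR replicates 4 to 7, 18.8 and 15.9 in the B6-mtBPL mice of 3 months, and 31.1 and 27.9 in those of 4 months. B6-mtALR replicate 5 and B6-mtBPL replicate 3 had the same value to 3 digits, and their order changed with the set of mice used for scaling, whereas the mice of 3 months were far apart. The log2 fold change was 1.24 ± 0.18 (SE) with an adjusted p of 0.0239, and 0.89 with the length trend removed. Relative to Rpl22 on the TPM scale, Rpl22l1 was at 0.376, 0.255, 0.403 and 0.443 in B6-mtALR replicates 4 to 7. The same ratio was 0.241 and 0.224 in B6-mtBPL of 3 months, and 0.351 and 0.338 in those of 4 months. The ratio of the paralogs thus overlapped between the strains and was lowest in the B6-mtBPL mice of 3 months.

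Rps27 and Rps27a followed, and as the study picked both on these samples, their direction is not independent evidence. Rps27 codes for a small-subunit protein with a zinc finger. It was at 101, 120.2, 90.1 and 96.6 CPM in B6-mtALR replicates 4 to 7 and at 57, 49, 68.9 and 69.7 CPM in B6-mtBPL replicates 1 to 4. All 4 B6-mtALR mice lay above the 4 B6-mtBPL mice, with a log2 fold change of 0.94 ± 0.14 (SE, adjusted p = 0.0239) and 0.49 after removal of the length trend. Rps27a codes for ubiquitin fused to a 40S protein (chromosome 11, 29545846 to 29548109, minus strand). It was at 241, 253, 226 and 211 CPM in B6-mtALR replicates 4 to 7 and at 133, 117, 171 and 164 CPM in B6-mtBPL replicates 1 to 4. Again these 8 mice did not overlap by strain, as the choice required, whereas B6-mtALR replicate 3 (5 months) was at 168 CPM. The log2 fold change was 0.89 ± 0.12 (SE, adjusted p = 0.0206), or 0.58 without the length trend.

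Among the other 60S genes, Rpl39 codes for a very small protein that lines the tunnel through which the new peptide leaves. Its CPM was 93.3, 83.4, 70.9 and 73.8 in B6-mtALR replicates 4 to 7 and 46.4, 43, 64.6 and 60.5 in B6-mtBPL replicates 1 to 4, with a log2 fold change of 0.84 ± 0.13 (SE, adjusted p = 0.0268). Rpl13a, whose product can leave the ribosome to silence inflammatory mRNAs, was at 329, 371, 295 and 341 CPM against 209.7, 195, 254 and 254 CPM. Its log2 fold change was 0.72 ± 0.12 (SE, adjusted p = 0.0301). In both genes every B6-mtALR mouse of 3 months was above every B6-mtBPL mouse, which follows from their choice. The B6-mtBPL mice of 4 months came closest. Rpl15 had 138 ± 10.1 CPM (SD, n = 4) in B6-mtALR and 101 ± 17.3 CPM (SD, n = 4) in B6-mtBPL, and a log2 fold change of 0.65 ± 0.12 (SE). For Rpl35, which sits at the tunnel exit, the means were 64.9 ± 4.67 and 48.6 ± 8.61 CPM (SD, n = 4 each) and the log2 fold change was 0.65 ± 0.11 (SE). For Rpl27a they were 114 ± 13 and 83.1 ± 12.8 CPM (SD, n = 4 each), with a log2 fold change of 0.64 ± 0.13 (SE). In these 3 genes the B6-mtBPL means take in the mice of 4 months, whereas the fold change is set against those of 3 months. These 3 genes were called with adjusted p of 0.0326, 0.0302 and 0.0403, and in each of them the 7 B6-mtALR mice lay above the 4 B6-mtBPL mice. For the B6-mtALR mice of 3 months this follows from the choice of the genes.

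On the 40S side, Rps7 was at 198, 202, 161 and 165 CPM in B6-mtALR replicates 4 to 7 and at 111, 106, 146 and 148 CPM in B6-mtBPL replicates 1 to 4. Its log2 fold change was 0.74 ± 0.13 (SE, adjusted p = 0.0302), and the lack of overlap between these mice follows from the choice of the gene. Rps12-ps3, annotated as protein-coding on chromosome 19 (59322290 to 59322783, plus strand), had a log2 fold change of 0.73 ± 0.14 (SE, adjusted p = 0.0360). Its parent gene Rps12 on chromosome 10 had the second lowest value of all 85 genes, 0.29 ± 0.20 (SE, adjusted p = 0.423). As 98.3% of the 31-base sequences of Rps12-ps3 and 90.4% of those of Rps12 occur in other genes, the reads of this pair cannot be assigned with certainty and its 2 values are uncertain.

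**Figure D2:**
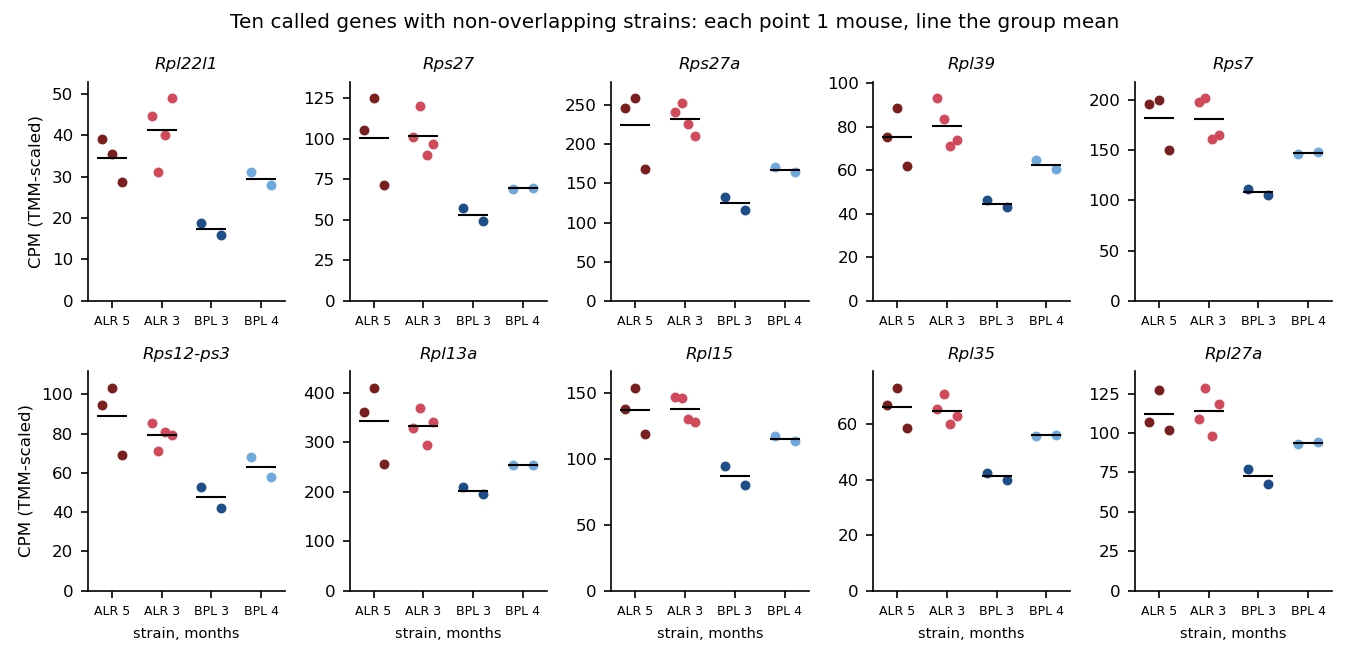
CPM (TMM-scaled over 11 mice, linear axis from 0) of the 10 genes with the largest log2 fold changes among the called genes whose B6-mtALR mice of 3 months did not overlap the B6-mtBPL mice, with 1 point per mouse and a line at each group mean (ALR and BPL with the age in months). In each panel the B6-mtBPL mice of 3 months are lowest and those of 4 months lie closer to B6-mtALR, as for Rps27 with 57 and 49 and 68.9 and 69.7 CPM.

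The most abundant ribosomal protein mRNAs did not show the largest differences. On the TPM scale, which is per length, the highest means over 11 mice were those of Rplp1 (1289.6), Rpl41 (1077), Rps2 (1019.9), Rps14 (904) and Rps18 (849). None of these 5 was called. Their log2 fold changes were 0.57 ± 0.15, 0.39 ± 0.15, 0.34 ± 0.14, 0.59 ± 0.16 and 0.43 ± 0.16 (SE), with adjusted p of 0.0684, 0.174, 0.193, 0.0789 and 0.153. Rps2 shows the overlap, with 632, 760.4, 568 and 638 CPM in B6-mtALR replicates 4 to 7 and 531, 489, 701 and 599 CPM in B6-mtBPL replicates 1 to 4, where replicate 3 lay above 3 of the 4 B6-mtALR mice. The lowest log2 fold changes were those of Rpl10 (0.28 ± 0.16), Rps12, and Rps6 (0.33 ± 0.12), the target of S6 kinase, with adjusted p of 0.328 for Rpl10 and 0.167 for Rps6. Across the 85 genes, Spearman's rho of mean TPM with the log2 fold change was -0.20, and that of transcript length was also -0.20, as descriptions across genes that are not independent. Over all genes tested, the rho of length was -0.47.

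The P stalk recruits elongation factors to the ribosome and consists of Rplp0 with Rplp1 and Rplp2. None of the 3 genes was called by edgeR, although all 3 were higher at an unadjusted p under 0.05. Their log2 fold changes were 0.47 ± 0.13 for Rplp0, 0.57 for Rplp1 and 0.37 ± 0.15 for Rplp2 (SE). Rplp0 was at 446, 549.7, 437 and 453 CPM in B6-mtALR replicates 4 to 7 and at 354, 323, 407 and 417 CPM in B6-mtBPL replicates 1 to 4, so that these mice did not overlap by strain although the adjusted p was 0.0814. Rpsa, the laminin receptor precursor and a 40S protein, had a log2 fold change of 0.50 ± 0.13 (SE, adjusted p = 0.0696). In Rpsa, B6-mtBPL replicate 3 (357 CPM) lay above B6-mtALR replicate 6 (350.0 CPM).

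Tissue-restricted copies were close to absent. Rpl10l, Rpl39l and Rpl3l, known from testis or muscle, had at most 2 estimated counts in any mouse and were not tested. Nor were Rpl36-ps4, Rpl36a-ps1, Rpl9-ps1 and Rpl9-ps6, with at most 11.4 counts. The list of such copies has 9 genes, one of which, Rps4l, is annotated as a pseudogene and is not among the 92. Of the 9, 6 were tested and 3 were called higher, against 0.935% of all genes. Besides Rpl22l1 the called genes were Rps27l, a p53 target (123 ± 8.36 against 89.7 ± 11.6 CPM, SD, n = 4 each), and Rpl36al (161 ± 9.65 against 128 ± 17.7 CPM). Their log2 fold changes were 0.59 ± 0.11 (SE, adjusted p = 0.0355) and 0.50 ± 0.11 (SE, adjusted p = 0.0479). These are set against the B6-mtBPL mice of 3 months, whereas the means take in those of 4 months too. Rpl7l1 (0.36 ± 0.19, adjusted p = 0.311) and Rps27rt (0.64 ± 0.21, adjusted p = 0.123) were not called, and 92.4% of the 31-base sequences of Rps27rt are shared with other genes. Rps4l was the 1 tested copy with a negative log2 fold change, -0.15 ± 0.22 (SE, adjusted p = 0.710), or -0.39 with the length trend removed. Relative to Rps27 on the TPM scale, Rps27l was at 0.749, 0.618, 0.719 and 0.750 in B6-mtALR replicates 4 to 7 and at 0.845, 0.944, 0.779 and 0.897 in B6-mtBPL replicates 1 to 4. As a description, these 8 ratios did not overlap by strain, but those of B6-mtALR replicates 1 to 3 (5 months) were 0.809, 0.733 and 0.844, and 2 of them lay within the range of B6-mtBPL. Rps19bp1, which is no ribosomal protein, was at 13, 15, 13.3 and 12.5 CPM in B6-mtALR replicates 4 to 7 and at 9.85, 8.89, 8.83 and 8.99 CPM in B6-mtBPL. These mice did not overlap by strain, and the log2 fold change was 0.52 ± 0.13 (SE, adjusted p = 0.0702).

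With the length trend of each mouse removed, the differences were smaller. The median log2 fold change fell from 0.49 to 0.19, 79 of 85 values were above 0 (against 50.9% of all genes), and no gene was called higher or lower, with a lowest adjusted p of 0.0983. By edgeR, 34 of the 85 genes were still higher at an unadjusted p under 0.05, compared with 7.86% of all genes. In this fit, the number of all genes called higher fell from 125 to 3 (0.0224%) and that of all genes called lower from 193 to 8 (0.0598%). The 23 genes called before had values from 0.14 to 0.89 here. Rpl36, Rpl38, Rpl41, Rps12, Rps28 and Rps29 had values from -0.12 to -0.0042. Across the 85 genes, Spearman's rho of length with the log2 fold change was then 0.47, which is opposite in sign to the value before the removal.

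**Figure D3:**
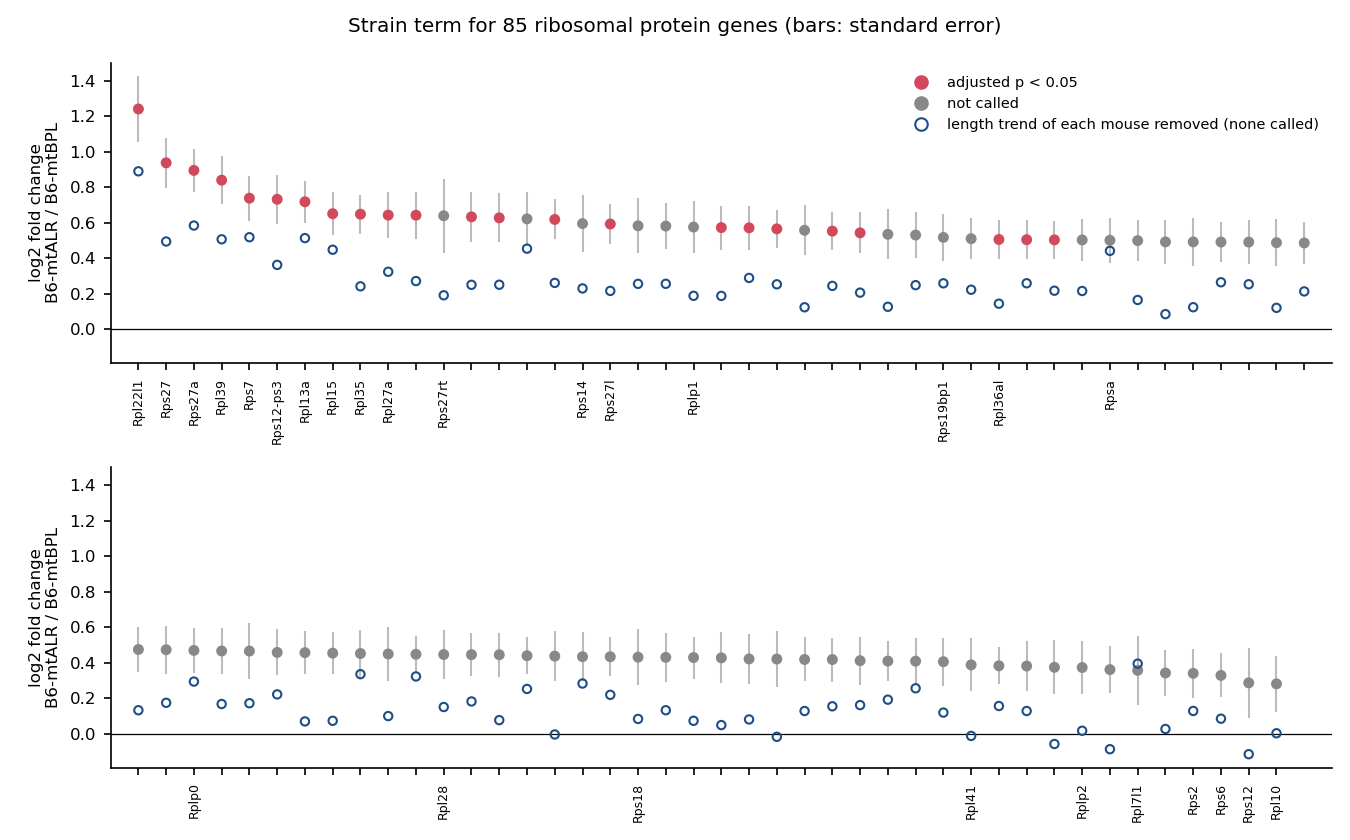
Log2 fold change of B6-mtALR over B6-mtBPL for 85 ribosomal protein genes in decreasing order (filled points, bars are the standard error, red where the adjusted p is under 0.05) and with the length trend of each mouse removed (open points). The genes chosen for description are named on the axis. All filled points lie above 0, from 1.24 in Rpl22l1 to 0.28 in Rpl10, and 79 open points do so.

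The number of called genes rested on single mice. Without B6-mtALR replicate 4, B6-mtBPL replicate 1 or B6-mtBPL replicate 2, no gene was called by edgeR, although 81, 75 and 47 genes were higher at an unadjusted p under 0.05 (8.17%, 6.31% and 4.29% of all genes). In these fits 0.00738%, 0% and 0% of all genes were called higher. Without B6-mtALR replicate 5, 1 gene was called (0.0221% of all genes), and without replicate 6, 43 were called (1.67%). Without B6-mtALR replicate 7, 19 were called, while 140 of all 13531 genes tested were called higher. Without B6-mtBPL replicate 3 or 4, 12 and 14 were called (0.697% and 0.664%). All 85 fold changes remained above 0 in each of these fits, with medians from 0.40 to 0.55. Each fit still sets B6-mtALR against B6-mtBPL mice of 3 months, and without B6-mtBPL replicate 1 or 2 only 1 such mouse is left. In 84 of the 85 genes, 1 of these 2 mice was the lowest of the 8. The shared direction of the fits is therefore not independent support. Without the age term, which sets 4 against all 4 B6-mtBPL mice, 4 genes were called (0.576% of all genes) and the median was 0.30. In the mice of 3 months alone, a fit chosen after the data were seen, 12 were called (0.665% of all genes). DESeq2 called 66 genes, in a test that called 4.08% of all genes higher. With all 11 mice, edgeR called no ribosomal protein gene with age in the model or without it (0.0369% and 0% of all genes). The median was then 0.31 with age and 0.34 without, and at an unadjusted p under 0.05, 68 and 74 genes were higher (9.03% and 8.56% of all genes). All 7 B6-mtALR mice lay above all 4 B6-mtBPL mice in 13 genes (1.4% of all genes), among them Rps27, Rps7, Rpl13a, Rpl15, Rpl35 and Rpl27a.

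**Figure D4:**
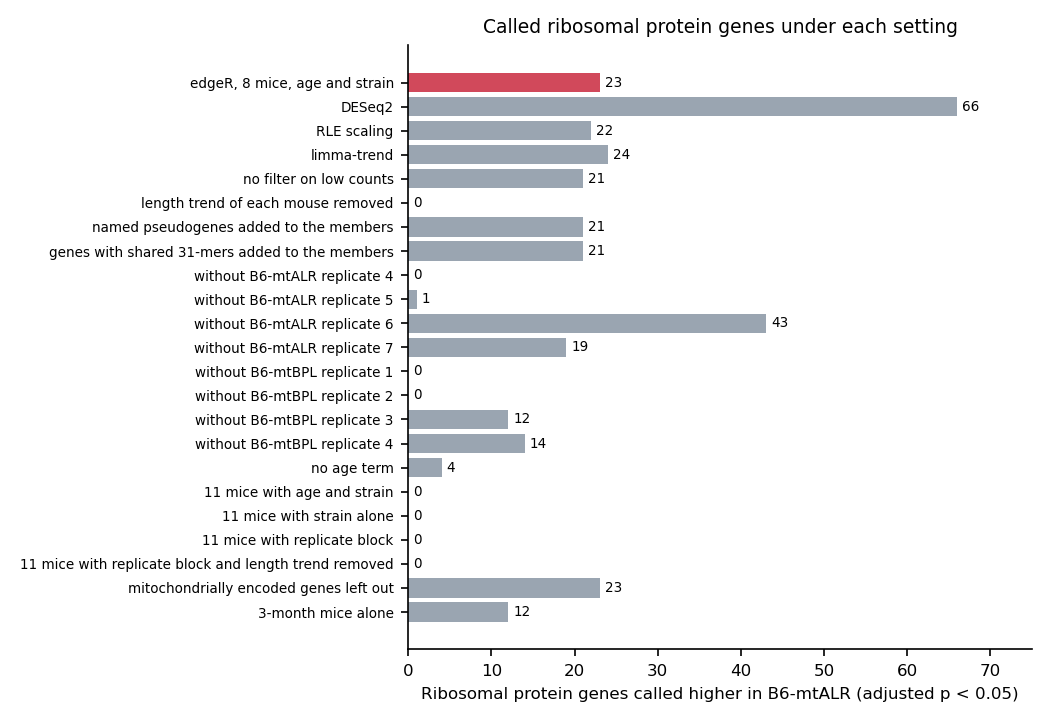
Number of ribosomal protein genes called higher in B6-mtALR (adjusted p under 0.05) under each setting of the strain comparison, with the reported fit in red. It is 23 in that fit and between 0 and 66 under the others.

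Many ribosomal protein genes have processed pseudogenes, so reads can be shared. A median of 28% of the 31-base sequences of a gene also occurred in transcripts of other genes, with over 50% in 22 genes and none in Rpl3l and Rps19bp1. When the counts of 264 genes that share at least 50% of their 31-base sequences with 1 ribosomal protein gene (259 of them pseudogenes) were added to it, 21 genes were called and the median was 0.47. In this fit 114 of all 13331 genes tested were called higher. The added genes held 10.4% of the combined count, and this alternative was chosen after the data were seen. Rpl27a was among those that changed, since its adjusted p became 0.0543.

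The other parts of ribosome production were compared by lists. Of the ribosomal proteins outside the symbol rule, Rack1 had a log2 fold change of 0.50 ± 0.14 (SE, adjusted p = 0.0827) and Fau of 0.33 ± 0.18 (SE, adjusted p = 0.322), so that neither was called by edgeR. Their values were 0.28 and -0.024 with the length trend removed. The mitochondrial ribosomal proteins, a separate set made for the ribosomes inside mitochondria, had 3 of 79 genes called higher and 0 lower, against 0.935% and 1.44% of all genes. At an unadjusted p under 0.05, 43 were higher and 0 lower, against 10.2% and 11.2% of all genes. Their median log2 fold change was 0.32, and all 79 values were above 0, compared with 49.6% of all genes. The 3 genes, named after their values were seen, were Mrpl53 (0.63 ± 0.13), Mrpl20 (0.60 ± 0.13) and Mrpl41 (0.60 ± 0.13, SE). With the length trend removed, 63 of the 79 were above 0, the median was 0.099 and none was called.

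Of 17 other mRNAs with a TOP motif, 2 were called higher, Eef1b2 (0.60 ± 0.12, SE, adjusted p = 0.0368), a subunit of elongation factor 1, and Tpt1 (0.51 ± 0.11, SE, adjusted p = 0.0409), with a list median of 0.24. Of all genes 0.935% were called higher. At an unadjusted p under 0.05, 8 of the 17 were higher and 0 lower (10.2% and 11.2% of all genes). The calls of Eef1b2 and Tpt1 were lost with the length trend removed (0.30 and 0.26, adjusted p = 0.191 and 0.286), and the median was 0.17. Among 64 ribosome assembly factors, 1 was called higher and 0 lower, a share near that of all genes. It was Bccip (0.49 ± 0.11, SE, adjusted p = 0.0481), and the list median was 0.082. At an unadjusted p under 0.05, 10 of the 64 were higher and 2 lower. The call of Bccip was also lost with the trend removed (0.33, adjusted p = 0.199, list median 0.054). The 15 genes of RNA polymerase I and its factors, which transcribe ribosomal RNA, had no calls by edgeR and a median of -0.038, with 2 higher and 0 lower at an unadjusted p under 0.05, and a median of -0.082 with the trend removed. Of 19 genes around mTOR, LARP1 and MYC, none was called by edgeR and the median was -0.12, with 1 higher and 4 lower at an unadjusted p under 0.05. The direction of this list turned when the trend was removed, with a median of 0.096, 13 of 19 values above 0, and 1 gene higher and 1 lower at an unadjusted p under 0.05. Mtor was at 43.3 ± 9.11 CPM in B6-mtALR and at 60.1 ± 12.5 CPM in B6-mtBPL (SD, n = 4 each). In the B6-mtBPL mice of 3 months, against which the fold change is set, its mean was 67.0 CPM. The log2 fold change was -0.64 ± 0.21 (SE, adjusted p = 0.118), or -0.34 with the trend removed. Larp1 (-0.12) and Myc (-0.54) had adjusted p of 0.555 and 0.479, and values of 0.22 and -0.58 with the trend removed. The median transcript length of the lists was 948 bases for the mitochondrial ribosomal proteins, 1541 for the other TOP mRNAs, 1797 for the assembly factors, 2131 for RNA polymerase I and 3361 for the mTOR list.

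Other features of the libraries differed between the same 8 mice. Mitochondrially encoded transcripts took 8.93, 7.43, 8.83 and 8.33% of counts in B6-mtALR replicates 4 to 7 and 6.25, 5.84, 6.37 and 6.92% in B6-mtBPL replicates 1 to 4. In the B6-mtALR mice of 5 months they took 6.20, 6.15 and 7.26%, which overlaps B6-mtBPL. With these genes left out, 23 ribosomal protein genes were called as well, while 121 of all 13359 genes tested were called higher. The summed CPM of 5 liver endothelial markers was 190.2 to 219.7 in B6-mtALR of 3 months and 242 to 317 in B6-mtBPL, with Stab2 and Kdr called lower. That of 6 stellate cell markers was 257 to 289.7 and 316 to 379, with Reln called lower. In B6-mtALR of 5 months these sums were 217 to 251 and 302 to 332 CPM, and both overlapped B6-mtBPL. Among 10 hepatocyte markers, Cps1 was called lower, and the sums overlapped. These 4 genes have transcripts of 4192 to 8228 bases. With the length trend removed, Reln was still called lower (-1.07, adjusted p = 0.0494), while Stab2 (-0.96, adjusted p = 0.0820), Kdr (-0.49) and Cps1 (-0.49) were not called. The sums of Kupffer cell, cholangiocyte, lymphocyte and erythroid markers overlapped between the strains. The part of these differences in the ribosomal protein result was not tested.

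Second, ages were compared within each strain, and as these comparisons use mice of the strain comparison, their results are not independent of it. In B6-mtALR, mice of 5 months were set against those of 3 months. Of the 85 genes tested, 0 were called by edgeR, compared with 0.509% of all genes called higher and 0.284% lower. The median log2 fold change was 0.074, with 65 values above 0 (51.7% of all genes), and it was 0.013 with the length trend removed. At an unadjusted p under 0.05, at which 5.17% of all genes were higher and 4.88% lower, 1 gene was higher and 0 lower. This was Rpl10-ps3 (0.47), in which 96.6% of the 31-base sequences are shared with other genes. Without B6-mtALR replicate 2, 28 of the 85 values were above 0 and the median was -0.027, whereas without replicate 3, 79 of 86 were and it was 0.18. As an example, Rps27a was at 246, 259.6 and 168 CPM at 5 months and, as given above, from 211 to 253 CPM at 3 months, with 1 mouse of 5 months below and 1 above that range.

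In B6-mtBPL, the mice of 4 months were higher than those of 3 months in most ribosomal protein genes, but the 4 mice did not give a call. By edgeR 0 of 85 genes were called, with a lowest adjusted p of 0.182 in Rpl22l1, while 0.103% of all 13615 genes tested were called higher and 0.0147% lower. At an unadjusted p under 0.05, 61 were higher and 0 lower (5.27% and 5.42% of all genes). The median log2 fold change was 0.34, 84 of 85 values were above 0 (50.9% of all genes), and both mice of 4 months lay above both of 3 months in 83 genes (22.4% of all genes). The exceptions were Rps19bp1, with a value of -0.075, and Rpl7l1, with 0.036. Rpl22l1 had the highest value, 0.76 ± 0.14 (SE), and was the 1 gene called by DESeq2, in a test that called 0.874% of all genes higher. With the length trend removed, the median was 0.19 and 8 genes were higher at an unadjusted p under 0.05 (4.74% of all genes). When B6-mtBPL replicates 1 to 4 were left out in turn, 23, 1, 35 and 71 genes were higher at that level (2.89%, 2.75%, 7.3% and 8.7% of all genes), with medians of 0.41, 0.26, 0.29 and 0.41. Without replicate 4, 1 gene was called, compared with 1.39% of all genes.

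**Figure D5:**
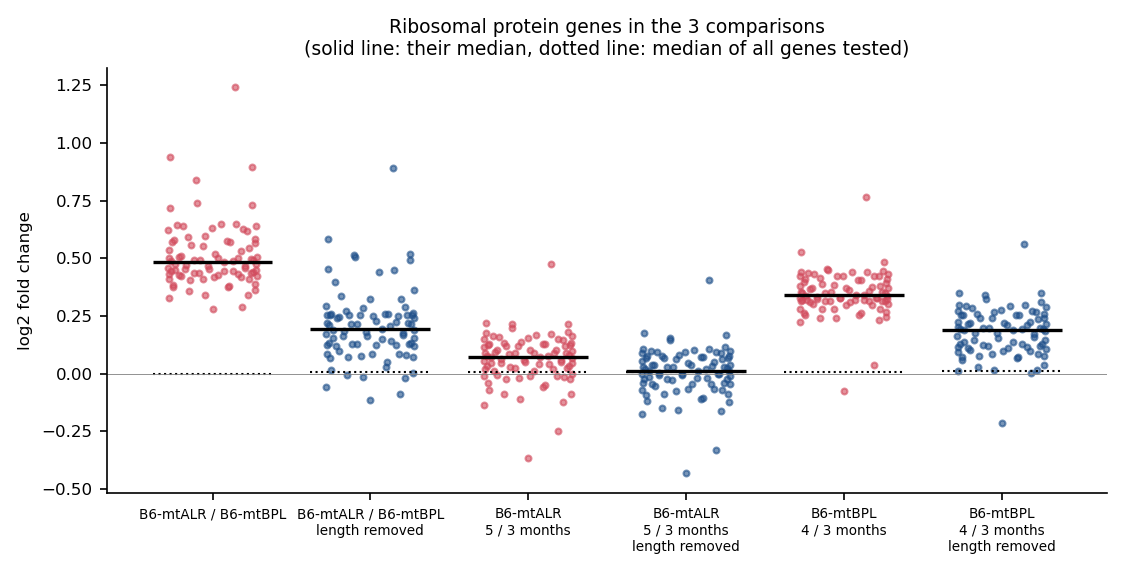
Log2 fold changes of ribosomal protein genes (1 point each, 85 per column) in the strain comparison and in the age comparisons of both strains, as fitted (red) and with the length trend of each mouse removed (blue). Their medians (solid lines) are 0.49, 0.074 and 0.34 as fitted and 0.19, 0.013 and 0.19 with the trend removed, and the medians of all genes tested (dotted lines) lie near 0.

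Finally, the use of transcripts within a gene was compared, as the share of a gene's estimated count in its second most abundant transcript. This could be tested in 33 genes with an exact permutation test of 4 B6-mtALR against 4 B6-mtBPL mice, two-sided, in which the smallest possible p is 0.0286. Only Rpl28, a 60S gene, reached it. Its transcript Rpl28-202 (772 bases, against 1106 of Rpl28-201) held 10.9, 14, 9.99 and 12.9% of the count in B6-mtALR replicates 4 to 7. In B6-mtBPL replicates 1 to 4 it held 17.1, 18.4, 15.8 and 17.6%. The strains did not overlap, and in the B6-mtALR mice of 5 months, which were not in the test, it held 12.8, 12.5 and 13.4%. After Benjamini-Hochberg adjustment over the 33 genes, the p was 0.629. A single gene at the smallest possible p could not pass this correction. The adjustment therefore does not decide on the difference of -5.27 percentage points. With 33 genes tested, such a p can also arise by chance.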

How the data were processed

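Liver RNA of 11 mice was sequenced as single-end reads. The authors pseudo-aligned them with kallisto 0.44.0 (mm10, per the labels' processing notes; the transcript release is not given in the sources used here) and deposited an estimated count per transcript, not normalised, and TPM, scaled per length and library. Of 96626 transcripts, 95213 (98.5%) matched GENCODE M21 by identifier and held at least 99.62% of each mouse's count. Estimated counts were summed per gene and rounded, and TPM was used for levels per length and for the mean length of a gene.

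Mice were grouped by the labels for strain and age. Their extraction text names other strains than the strain fields, which were used. No batch or strandedness is named. Genes were filtered with filterByExpr (minimum count 10, total 15), scaled by TMM and tested in edgeR 4.0.16 (quasi-likelihood, R 4.3.3), with Benjamini-Hochberg adjustment over all genes and a threshold of 0.05. SEs were derived from its F statistic. DESeq2 1.42.0 and limma 3.58.1 (limma-trend) were alternatives. A lowess curve (span 0.3) per mouse on log10 transcript length was the length correction. log2 CPM holds a prior count of 0.5. The members, lists and tests were chosen with earlier results of these data known. The procedure was tested on simulated data. These were drawn gene by gene without a length trend, shared movement of genes or age effect, so that the simulation does not cover these features. Named genes were the 10 largest called log2 fold changes without overlap in the 8 mice, the 5 highest TPM, the 3 lowest and 3 highest fold changes, the P stalk, Rpsa, the listed copies, Rps19bp1, Rps27, Rps27a and genes with a transcript share p under 0.05. Of the lists, called genes, Fau, Rack1, Mtor, Larp1 and Myc are named. Exceptions to a count and the other called genes were named after their values were seen. A few genes are not reported here by name. Replicate mice agreed less than counting error allows in every pair, so that no library was counted as deposited more than once, and spreads are given over mice. Promoter sequences came from RefSeq (GRCm38.p6).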

Additional observations from a re-analysis of the deposited data

Results flagged for a closer look

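Of 56 groups of 4 mice examined for single mice that stand apart by Dixon's criterion, 4 gave one, and chance gives about 1 in 20. The groups are not independent, as the same mice recur in them and the genes moved together. The number is therefore not compared with chance. B6-mtALR replicate 5 was above the other 3 B6-mtALR mice of 3 months in the share of counts taken by ribosomal protein genes (1.72% against 1.44% to 1.48%). The same mouse stood apart in Rplp0 (549.7 CPM against 437 to 453) and in Rps6 (279.7 CPM against 229.5 to 236). Its length slope of -0.421 was the most negative of the 11 mice, and the part of this in the values was not tested. In Rps19bp1, B6-mtBPL replicate 1 (9.85 CPM) was above the other 3 B6-mtBPL mice (8.83 to 8.99 CPM).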

How the results depend on the processing

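The direction of the ribosomal protein genes in the strain comparison was kept more often than their calls. The settings share mice, so that this is not independent support. Against 23 called genes, DESeq2 called 66, the fit without an age term 4 and the mice of 3 months alone 12 (chosen after the data were seen). In these 3 fits 4.08%, 0.576% and 0.665% of all genes were called higher, against 0.935% in the reported fit. No ribosomal protein gene was called with the length trend removed, nor with all 11 mice under age and strain or strain alone. The shares of all genes called higher were then 0.0224%, 0.0369% and 0%. RLE scaling, limma-trend, no filter, added pseudogenes (by name, or by 31-base sequences, the latter chosen after the data were seen) and the absence of mitochondrially encoded genes gave 21 to 24. In these fits 114 to 133 of all genes were called higher, of 13331 to 20730 tested. When a replicate block was added for the 11 mice, 0 genes were called (0 of all 13550 genes tested). The median log2 fold change was 0.37, or 0.109 with the length trend removed too. Replicates 5 to 7 exist in B6-mtALR alone and do not enter this fold change. It sets B6-mtALR replicates 1 to 4 against B6-mtBPL replicates 1 to 4 without an age term. Of these, B6-mtALR replicates 1 to 3 were 5 months old. Mice of the same number did not deviate together (correlations of -0.256, -0.194, 0.111 and -0.12), so the numbers do not pair the mice. Leaving out 1 mouse gave 0 to 43 called genes (0 without B6-mtALR replicate 4 or B6-mtBPL replicate 1 or 2, 1 without B6-mtALR replicate 5, 43 without B6-mtALR replicate 6, 19 without B6-mtALR replicate 7, and 12 and 14 without B6-mtBPL replicates 3 and 4) and medians from 0.403 to 0.547. How many of all genes were called in the fits without 1 mouse is given with the strain comparison above. With the length trend alone removed, the median was 0.192, and Rpl41 (-0.012) and Rps12 (-0.115) turned to negative values. With block and length removal, Rpl10 (-0.115), Rpl41 (-0.011), Rplp2 (-0.053), Rps12 (-0.31) and Rps2 (-0.001) did so. The cause of these changes was not tested. The age comparison of B6-mtALR gave 0 calls under every alternative. That of B6-mtBPL gave 1 by DESeq2 and 0 to 1 when 1 mouse was left out (1 without replicate 4), where 0.874% and 1.39% of all genes were called higher. The difference in share of counts between the strains (0.255 percentage points) was 0.45 on the TPM scale and 0.188 to 0.325 when 1 mouse was left out. Among 33 transcript shares, 1 had an exact permutation p under 0.05, 3 did with all 11 mice, and 1 to 2 when 1 mouse was left out (2 without B6-mtALR replicate 5 or B6-mtBPL replicate 2 or 4). No adjusted p was under 0.05, which a single gene could not reach with 4 against 4 mice.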
